A study of Homo sapiens with 6 samples.

Results

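Histone deacetylases remove acetyl groups from lysines of histones and of other proteins. The transcripts of 10 of these genes, HDAC1, HDAC2, HDAC3, HDAC4, HDAC5, HDAC6, HDAC7, HDAC8, HDAC9 and HDAC11, were compared between SW480 cells that carried a hairpin against MORC2 (shMORC2) and SW480 cells that carried a non-silencing control hairpin (shCtrl). The members were taken by gene symbol from a deposited table of 56303 genes, by a rule that used no measured value, although earlier results of these data were known when it was written. All 10 were among the 21005 genes that passed the filter on low counts. SW480 is an established line from a human colorectal tumour (adenocarcinoma), and MORC2 is a nuclear ATPase of the microrchidia family that takes part in chromatin compaction and gene silencing. Both groups carried a lentiviral hairpin, were selected with puromycin and were described as stable clonal lines. Each group had 3 libraries of polyadenylated RNA, numbered 1 to 3. With 1 control line and 1 knockdown line, a difference between the lines cannot be told apart from an effect of the hairpin, and the p-values measure the spread between these libraries, which the study describes as replicate experiments of each line.

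The zinc-dependent deacetylases fall into classes by sequence. Class I (HDAC1, HDAC2, HDAC3 and HDAC8) holds the main nuclear enzymes. Of these, HDAC1, HDAC2 and HDAC3 act as the catalytic subunits of corepressor complexes such as SIN3, NuRD, CoREST and NCOR/SMRT. Class IIa (HDAC4, HDAC5, HDAC7 and HDAC9) has little deacetylase activity of its own and acts largely as a set of adaptors that bind MEF2 transcription factors and leave the nucleus with 14-3-3 proteins once kinases have phosphorylated them. HDAC6, of class IIb, deacetylates tubulin in the cytoplasm, and HDAC11 is the sole enzyme of class IV.

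The libraries held 42092664 to 43434425 counts. Levels are given as CPM, the counts scaled to a fixed library total, on library sizes adjusted by the trimmed mean of M values (TMM), and log2 fold changes as shMORC2 over shCtrl from edgeR's quasi-likelihood test, with p-values adjusted over all genes tested and an adjusted p under 0.05 called. MORC2 itself stood at 46.1, 46.4 and 48.8 CPM in the shCtrl libraries and at 35.03, 29.3 and 27.2 CPM in the shMORC2 libraries (log2 fold change -0.63, SE 0.10, edgeR adjusted p 0.000216). The background was broad, since 39.5% of the genes tested were called, 19.9% as higher and 19.6% as lower in shMORC2. The cells carried the markers of epithelium, with 7 such genes summing to 20130 to 26168 CPM in shCtrl and 19171 to 26050 CPM in shMORC2. Of 5 leukocyte markers, PTPRC and ITGAM had at most 6 counts, CD3E at most 3 and CD14 6 to 26 counts in any library. Of 4 endothelial markers, CDH5 and KDR had at most 2 counts, VWF 86 to 153 and PECAM1 576 to 860. Of 5 fibroblast markers, DCN had at most 2 counts, COL1A2 at most 10, PDGFRB 63 to 102, COL1A1 355 to 458 and LUM 330 to 514. The sums of these lists were low but higher in shMORC2, at 0.236 to 0.593 CPM against 0.744 to 0.798 CPM for leukocyte, 15.7 to 19.6 against 20.6 to 22.3 for endothelial and 19.9 to 20.7 against 22.7 to 24.96 for fibroblast markers, and their part in the results was not tested.

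To learn which deacetylase classes differed after MORC2 depletion, the 10 genes were tested in the fit of all genes. All 4 class IIa genes were lower in shMORC2 and called, while the 4 class I genes, HDAC6 and HDAC11 were not called by edgeR. At an unadjusted p under 0.05, which 48.1% of all genes tested reached, HDAC1 and HDAC6 were added, and DESeq2 called HDAC6 besides class IIa. Counted in either direction, 4 of the 10 members were called, where 39.5% of all genes tested were. The family as a whole thus stood near the background. All 4 were lower, and 19.6% of all genes tested were called lower. The median log2 fold change was -0.61 over class IIa and 0.12 over class I, and it was -0.0056 over all genes tested. In 7 of the 10 members the 3 values of one group lay wholly on one side of the other group, as they did in 50.2% of all genes tested. Of the 7, class IIa gave 4 that were lower, and HDAC1, HDAC2 and HDAC3 were the 3 that were higher, where 25.1% of all genes tested had no overlap in each direction. The fit with the replicate number as a block, under which 49.0% of all genes were called (24.4% higher and 24.5% lower), called 7 members, of which 4 were lower (class IIa) and 3 were higher (HDAC1, HDAC2 and HDAC6).

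**Figure D1:**
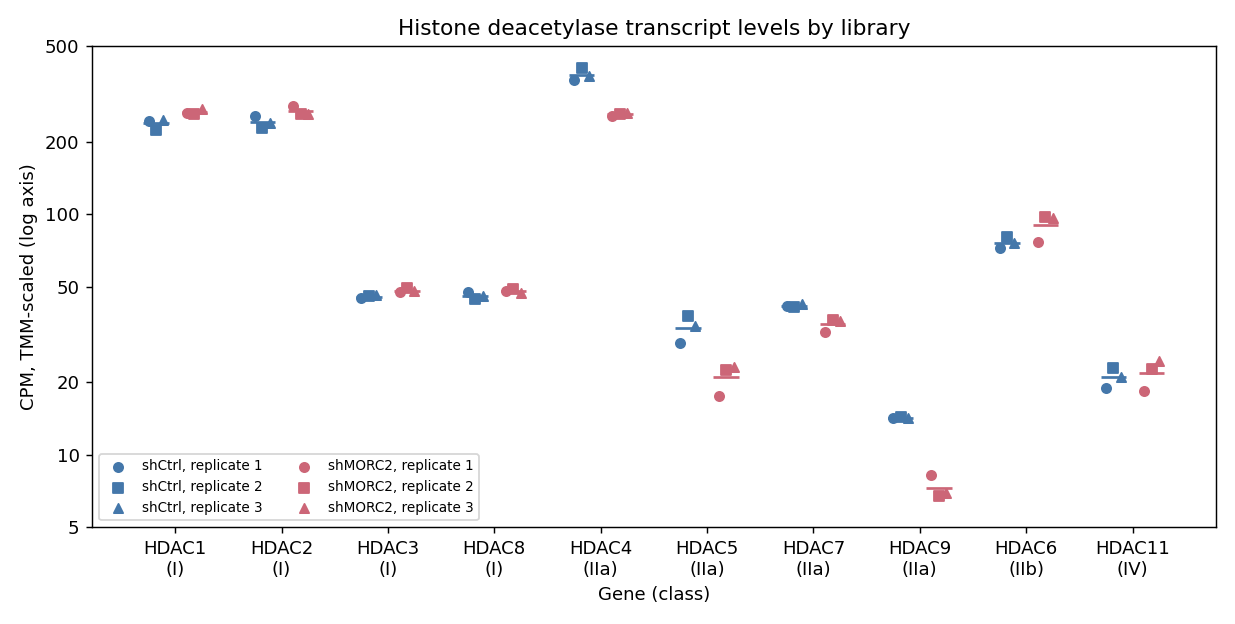
Transcript level of each deacetylase gene in each library, in TMM-scaled CPM on a log axis, with the class under the gene name. Points are single libraries, marker shapes give the replicate number and short lines the group means (n = 3). The red shMORC2 points of HDAC4, HDAC5, HDAC7 and HDAC9 lie below all blue shCtrl points of the same gene.

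The sequences in front of listed starts of class IIa genes are shown because these members moved together. RefSeq (GRCh38.p14) listed windows for 9 of the 10 members. HDAC5 was not among them. The 250 bases before the most upstream listed start are given 5′ to 3′ on the strand of the gene, with each GC box (GGGCGG, or CCGCCC on the other strand) in capitals. The windows are chr2:239401650-239401899 on the minus strand for HDAC4, chr12:47819904-47820153 on the minus strand for HDAC7 and chr7:18086575-18086824 on the plus strand for HDAC9.
HDAC4: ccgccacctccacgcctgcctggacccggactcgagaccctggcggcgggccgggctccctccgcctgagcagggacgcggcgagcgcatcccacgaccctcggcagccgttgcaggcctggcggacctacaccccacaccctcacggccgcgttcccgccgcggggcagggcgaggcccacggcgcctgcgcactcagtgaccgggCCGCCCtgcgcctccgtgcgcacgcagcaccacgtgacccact
HDAC7: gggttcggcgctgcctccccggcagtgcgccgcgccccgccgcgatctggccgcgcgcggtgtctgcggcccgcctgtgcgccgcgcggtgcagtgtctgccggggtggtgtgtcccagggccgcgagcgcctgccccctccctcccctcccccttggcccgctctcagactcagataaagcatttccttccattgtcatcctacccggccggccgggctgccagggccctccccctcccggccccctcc
HDAC9: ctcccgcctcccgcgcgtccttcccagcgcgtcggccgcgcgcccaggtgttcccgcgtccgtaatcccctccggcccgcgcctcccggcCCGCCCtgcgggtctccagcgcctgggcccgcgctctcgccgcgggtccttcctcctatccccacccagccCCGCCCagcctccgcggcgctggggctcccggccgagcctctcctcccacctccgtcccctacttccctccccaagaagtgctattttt
These windows were rich in G and C, at 76.8%, 75.6% and 75.2%, where the median over 35116 windows of the same length was 58.0%. Members outside class IIa stood at 73.6% (HDAC11), 71.6% (HDAC1), 70.8% (HDAC3), 63.2% (HDAC2), 50% (HDAC6) and 48% (HDAC8). A high share of G and C was thus not particular to class IIa. A GC box was found in 6 of the 9 members' windows and in 42.6% of all windows. A CCAAT box (CCAAT on either strand) was found in 1 of the 9 and in 32.0% of all windows. A TATA box (TATAAA on either strand) was found in 0 of the 9 and in 10.7% of all windows, and the MEF2 motif in 0 of the 9 and in 2.80% of all windows. A match or its absence describes these letters only. Gene counts do not show which start was used, and HDAC4 and HDAC9 each have 5 listed starts. Of the windows shown, that of HDAC7 lies inside the counted gene (47782722 to 47833132) and not in front of it.

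HDAC9 showed the largest change of the 10 members. It lies on chromosome 7 (18086949 to 19002416, plus strand) and encodes a class IIa adaptor that binds MEF2. It stood at 14.3, 14.4 and 14.1 CPM in shCtrl and at 8.25, 6.73 and 6.90 CPM in shMORC2 replicates 1, 2 and 3. The shCtrl libraries were almost level, and the highest shMORC2 library stayed well under them. The mean fell from 14.3 ± 0.125 to 7.29 ± 0.834 CPM (SD, n = 3 each), which left 51.1% of the control level (log2 fold change -0.97, SE 0.11, 95% interval -1.20 to -0.73, edgeR adjusted p 2.16e-05). Of all genes tested, 9.44% had a fitted change of that size or more. HDAC9 was also the least abundant member, at 582 to 626 counts per shCtrl library and 280 to 366 counts per shMORC2 library.

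HDAC5 (chromosome 17, 44076746 to 44123702, minus strand) encodes the class IIa protein best known as a target of calcium and energy-sensing kinases. Its level was 29.0, 37.7 and 34.3 CPM in shCtrl and 17.5, 22.5 and 23.2 CPM in shMORC2. Replicate 1 was the lowest library of both groups, and the groups did not overlap. Within the pairs of equal replicate number the log2 differences were -0.73, -0.74 and -0.56. The mean fell from 33.7 ± 4.37 to 21.1 ± 3.10 CPM (SD, n = 3 each), or 62.7% of the control level (log2 fold change -0.67, SE 0.12, 95% interval -0.93 to -0.42, edgeR adjusted p 0.000667).

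HDAC4 (chromosome 2, 239048168 to 239401654, minus strand), a class IIa adaptor studied in muscle, bone and neurons, had more counts than any other member in shCtrl. It stood at 359, 403 and 376 CPM there and at 256, 261 and 262 CPM in shMORC2. The shMORC2 libraries were close to each other and all below the lowest shCtrl library. The mean fell from 379 ± 22.1 to 259.8 ± 3.59 CPM (SD, n = 3 each), or 68.5% of the control level (log2 fold change -0.55, SE 0.073, 95% interval -0.70 to -0.39, edgeR adjusted p 8.01e-05). With 10883 to 17046 counts per library, HDAC4 was among the members measured with the most reads.

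HDAC7 (chromosome 12, 47782722 to 47833132, minus strand), the class IIa member known from thymocytes and endothelium, changed least within its class. It stood at 41.6, 41.1 and 42.4 CPM in shCtrl and at 32.4, 36.2 and 36.0 CPM in shMORC2. The groups did not overlap, and shMORC2 replicate 1 was the lowest library. The mean fell from 41.7 ± 0.646 to 34.9 ± 2.16 CPM (SD, n = 3 each), or 83.7% of the control level (log2 fold change -0.26, SE 0.078, 95% interval -0.43 to -0.09, edgeR adjusted p 0.0190). This call held in 12 of 14 alternatives and was lost when either of 2 single libraries was left out. Without shMORC2 replicate 1 the log2 fold change was -0.20 (edgeR adjusted p 0.0588), and without shCtrl replicate 3 it was -0.24 (edgeR adjusted p 0.0717). The 95% interval of HDAC7 did not overlap that of HDAC9, and the difference between the class IIa members was not tested.

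**Figure D2:**
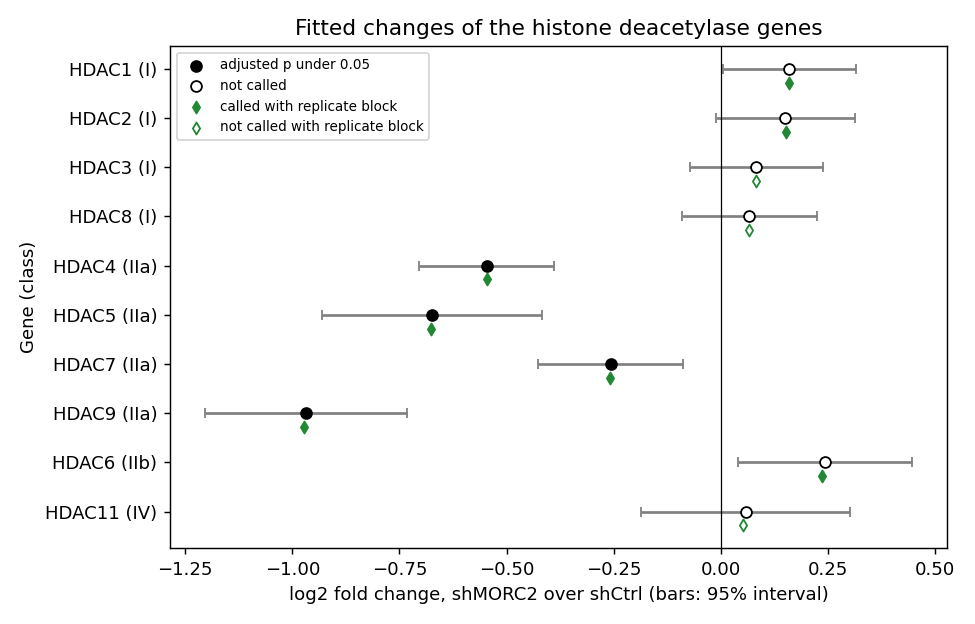
Fitted log2 fold change of each member (circles, filled where called), with bars for its 95% interval, and the value from the fit with the replicate number as a block (diamonds, filled where called). The class IIa genes lie between -0.97 and -0.26, and the other 6 members between 0.058 and 0.24.

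Class I genes lay on the other side of 0, with small differences. HDAC1 and HDAC2 are paired catalytic subunits of the SIN3, NuRD, CoREST and MiDAC complexes. HDAC1 (chromosome 1, 32292086 to 32333635, plus strand) stood at 243, 224 and 247 CPM in shCtrl and at 264, 260.2 and 274 CPM in shMORC2. HDAC2 (chromosome 6, 113933028 to 114011308, minus strand) stood at 256, 227 and 239 CPM in shCtrl and at 281, 259.9 and 261 CPM in shMORC2. In both genes all shMORC2 libraries lay above all shCtrl libraries, and replicate 2 of shCtrl was the lowest library.

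For HDAC1 the log2 fold change was 0.16 (SE 0.072, 95% interval 0.0042 to 0.31, edgeR adjusted p 0.0955), and for HDAC2 it was 0.15 (SE 0.075, 95% interval -0.011 to 0.31, edgeR adjusted p 0.129). Neither was called. With the replicate number as a block both were, at the same size of change (edgeR adjusted p 0.0167 for HDAC1 and 0.0230 for HDAC2). The log2 differences within pairs were 0.12, 0.21 and 0.15 for HDAC1 and 0.14, 0.19 and 0.12 for HDAC2. Of the processed copies of HDAC1, HDAC1P2 had 2 to 6 counts and HDAC1P1 had 0 counts in every library. These counts are separate from those of HDAC1, so they do not show whether reads of a copy were counted to HDAC1. That was not tested.

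The balance between the paired enzymes was compared as the log2 ratio of their levels per kilobase. It was 1.89, 1.95 and 2.01 in shCtrl and 1.87, 1.97 and 2.03 in shMORC2. The groups overlapped almost fully. The mean difference was 0.0088 (exact permutation test, two-sided, p 0.8, where 3 against 3 libraries cannot go below 0.1).

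HDAC3 and HDAC8 differed little between the groups. HDAC3 (chromosome 5, 141620876 to 141636870, minus strand), the catalytic subunit of the NCOR and SMRT complexes, stood at 44.7, 45.6 and 46.1 CPM in shCtrl and at 47.5, 49.1 and 47.7 CPM in shMORC2. HDAC8 (chromosome X, 72329516 to 72573103, minus strand), which deacetylates the cohesin subunit SMC3, stood at 47.5, 44.4 and 45.5 CPM in shCtrl and at 48.0, 48.8 and 46.9 CPM in shMORC2. The HDAC3 groups did not overlap and the HDAC8 groups did. The log2 fold change was 0.083 for HDAC3 (SE 0.072, 95% interval -0.07 to 0.24, edgeR adjusted p 0.387) and 0.067 for HDAC8 (SE 0.073, 95% interval -0.09 to 0.22, edgeR adjusted p 0.501). These intervals leave room for a rise of up to 0.24 and 0.22 on the log2 scale, or a small fall.

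HDAC6 (chromosome X, 48801377 to 48824982, plus strand), the tubulin deacetylase, stood at 72.6, 80.0 and 76.1 CPM in shCtrl and at 76.8, 97.1 and 96.7 CPM in shMORC2. Replicates 2 and 3 of shMORC2 were above every shCtrl library, while replicate 1 lay inside the shCtrl range. The log2 fold change was 0.24 (SE 0.094, 95% interval 0.041 to 0.45) and was not called (edgeR adjusted p 0.0549). It was called without shMORC2 replicate 1 (log2 fold change 0.35, edgeR adjusted p 0.00240) and in the blocked fit (log2 fold change 0.24, edgeR adjusted p 0.00252). Within pairs the log2 differences were 0.08, 0.28 and 0.35. The other class IIb gene, HDAC10, is no member and went the other way, from 19.8 ± 0.553 to 15.2 ± 1.06 CPM (SD, n = 3 each, log2 fold change -0.38, SE 0.091, edgeR adjusted p 0.00456).

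HDAC11 (chromosome 3, 13479724 to 13506424, plus strand), which is known to remove long fatty acyl groups from proteins, stood at 19.0, 22.9 and 21.1 CPM in shCtrl and at 18.3, 22.7 and 24.6 CPM in shMORC2. The groups overlapped, and replicate 1 was the lowest library of both. The log2 fold change was 0.058 (SE 0.11, 95% interval -0.19 to 0.30, edgeR adjusted p 0.716). Its sign changed when shCtrl replicate 1 (-0.011) or shMORC2 replicate 3 (-0.030) was left out.

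Some members share exonic sequence with genes on the opposite strand, and whether the counting used strand was not given in the sources used here. The shared stretch was 549 bases for HDAC7 and RP5-1057I20.4 (72 to 134 counts per library), 117 bases for HDAC7 and RP5-1057I20.5 (0 to 17 counts), 32 bases for HDAC7 and SLC48A1 (823 to 1124 counts, where HDAC7 had at least 1437) and 426 bases for HDAC3 and AC008781.7 (324 to 392 counts). It was 330 bases for HDAC11 and HDAC11-AS1, which had 0 to 2 counts. HDAC2 and HDAC4 shared at most 69 and 101 bases with genes of at most 42 and 28 counts.

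To see which enzymes made up the deacetylase pool, levels were compared between genes per kilobase of merged exons. In shCtrl HDAC1 was highest at 60.1 ± 3.02 CPM per kilobase, followed by HDAC4 (28.4 ± 1.65), HDAC2 (15.6 ± 0.924), HDAC3 (9.82 ± 0.152), HDAC8 (8.51 ± 0.291) and HDAC6 (7.32 ± 0.353; SD, n = 3 each). HDAC5 (4.42 ± 0.573), HDAC7 (4.20 ± 0.0651) and HDAC11 (3.98 ± 0.372) came next, and their neighbouring ranks overlapped between libraries. HDAC9 was lowest at 0.848 ± 0.00744 CPM per kilobase. In shMORC2 HDAC5 moved from rank 7 to rank 9 with 2.77 ± 0.407 CPM per kilobase, HDAC11 moved to rank 7, and HDAC6 overlapped HDAC8. With the length of the canonical transcript in place of merged exons, HDAC8 came at rank 3 in shCtrl and HDAC5 at rank 9, so the middle of the order depends on the length used, while HDAC1, HDAC4 and HDAC9 kept their places.

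The summed level of the 10 genes was 143.1 ± 1.84 CPM per kilobase in shCtrl and 142.7 ± 2.78 in shMORC2 (SD, n = 3 each), a difference under the spread between libraries. Its make-up differed. Class IIa gave 25.0%, 28.3% and 25.99% of the sum in shCtrl and 17.98%, 18.7% and 18.3% in shMORC2. Class I gave 67.6%, 63.2% and 66.2% in shCtrl and 74.3%, 71.8% and 72.1% in shMORC2. In both classes the groups did not overlap. The class IIa sum fell from 37.8 ± 2.19 to 26.2 ± 0.841 CPM per kilobase, of which HDAC4 alone accounted for 28.4 in shCtrl and 19.4 in shMORC2. Class IIb, here HDAC6, went from 5.12 ± 0.278% to 6.07 ± 0.697% and HDAC11 from 2.78 ± 0.274% to 2.90 ± 0.375%. These shares follow from the member values above and were not tested.

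**Figure D3:**
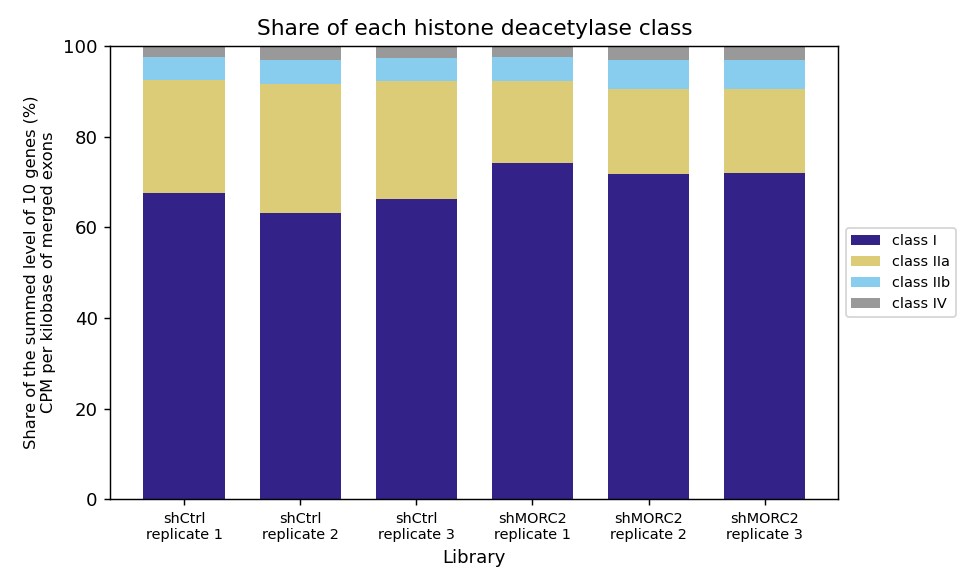
Share of each class in the summed level of the 10 genes (CPM per kilobase of merged exons), one stacked bar per library, from 0 to 100%. The class IIa band takes 25.0% to 28.3% of each shCtrl bar and 17.98% to 18.7% of each shMORC2 bar.

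Genes that work with deacetylases were examined in 11 lists of 88 genes, of which 86 were tested. Of these, 10 were called higher and 28 lower, so that 44.2% were called where 39.5% of all genes were. Their median log2 fold change was -0.12. Over all genes tested 19.9% were called higher and 19.6% lower, with a median of -0.0056. These shares are the background for each list below, and no list was tested as a set. With the replicate number as a block 17 were called higher and 36 lower, where 24.4% and 24.5% of all genes were. With DESeq2 the counts of single lists differed by 1 for SIN3 (1 higher), NCOR and SMRT (2 lower), the kinases (2 lower) and BET (2 higher). At an unadjusted p under 0.05 they differed for SIN3 (7 lower), NuRD (4 higher), NCOR and SMRT (2 lower), the kinases (5 lower) and BET (2 higher). The other lists had the same counts in all 3. The lists hold the corepressor complexes of class I, the partners and kinases of class IIa, and other enzymes and readers of lysine acetylation. Where a gene other than the highest and lowest called of its list is named, it was named to complete a count after its values were seen. The values of YWHAE are given for its abundance, which was also chosen after they were seen.

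Among the partners of class IIa, 3 of 4 MEF2 factors were tested and all 3 were called lower, where 19.6% of all genes tested were. Their median log2 fold change was -0.39. MEF2C did not pass the filter. MEF2B stood at 7.07, 8.63 and 8.34 CPM in shCtrl and at 5.43, 5.45 and 6.27 CPM in shMORC2 (log2 fold change -0.49, SE 0.13, edgeR adjusted p 0.00803). MEF2D stood at 36.3, 47.6 and 48.9 CPM in shCtrl and at 30.2, 37.3 and 34.0 CPM in shMORC2 (log2 fold change -0.39, SE 0.11, edgeR adjusted p 0.0159). MEF2A stood at 20.6, 21.8 and 21.2 CPM in shCtrl and at 19.5, 15.9 and 16.2 CPM in shMORC2 (log2 fold change -0.30, SE 0.097, edgeR adjusted p 0.0263). The groups of MEF2B and MEF2A did not overlap, while those of MEF2D did. The call of MEF2B held in 14 of 14 alternatives, that of MEF2D in 10 and that of MEF2A in 7.

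The 14-3-3 genes, whose products hold phosphorylated class IIa deacetylases in the cytoplasm, mostly rose. Of 7 tested, YWHAZ, YWHAE, YWHAB and YWHAQ were called higher and YWHAH lower, where 19.9% and 19.6% of all genes tested were. The median log2 fold change of the list was 0.31. The blocked fit called 4 of the list higher and 2 lower, where 24.4% and 24.5% of all genes tested were. YWHAZ rose from 417 ± 17.0 to 588 ± 38.8 CPM (SD, n = 3 each, log2 fold change 0.50, SE 0.077, edgeR adjusted p 0.000247). YWHAE, the most abundant by counts of these 4, rose from 1182 ± 50.9 to 1646 ± 59.3 CPM (log2 fold change 0.48, SE 0.075, edgeR adjusted p 0.000286). YWHAH fell from 104 ± 10.3 to 85.1 ± 3.46 CPM (log2 fold change -0.29, SE 0.084, edgeR adjusted p 0.0142). In these 3 genes the groups did not overlap.

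Of 11 kinases that phosphorylate class IIa deacetylases, CAMK1D was called higher and SIK1, SIK2 and CAMK2D lower, of which CAMK2D stood at the threshold (log2 fold change -0.23, SE 0.087, edgeR adjusted p 0.0498) and was called in 5 of 14 alternatives. The median log2 fold change was -0.088. CAMK1D, a calcium and calmodulin-dependent kinase, stood at 4.61, 3.85 and 4.62 CPM in shCtrl and at 8.30, 9.70 and 9.89 CPM in shMORC2 (log2 fold change 1.09, SE 0.13, edgeR adjusted p 3.16e-05). SIK1, a salt-inducible kinase, stood at 14.9, 19.6 and 15.1 CPM in shCtrl and at 9.24, 9.85 and 10.4 CPM in shMORC2 (log2 fold change -0.75, SE 0.12, edgeR adjusted p 0.000311). The kinases thus moved in both directions, and the other 7 were not called.

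**Figure D4:**
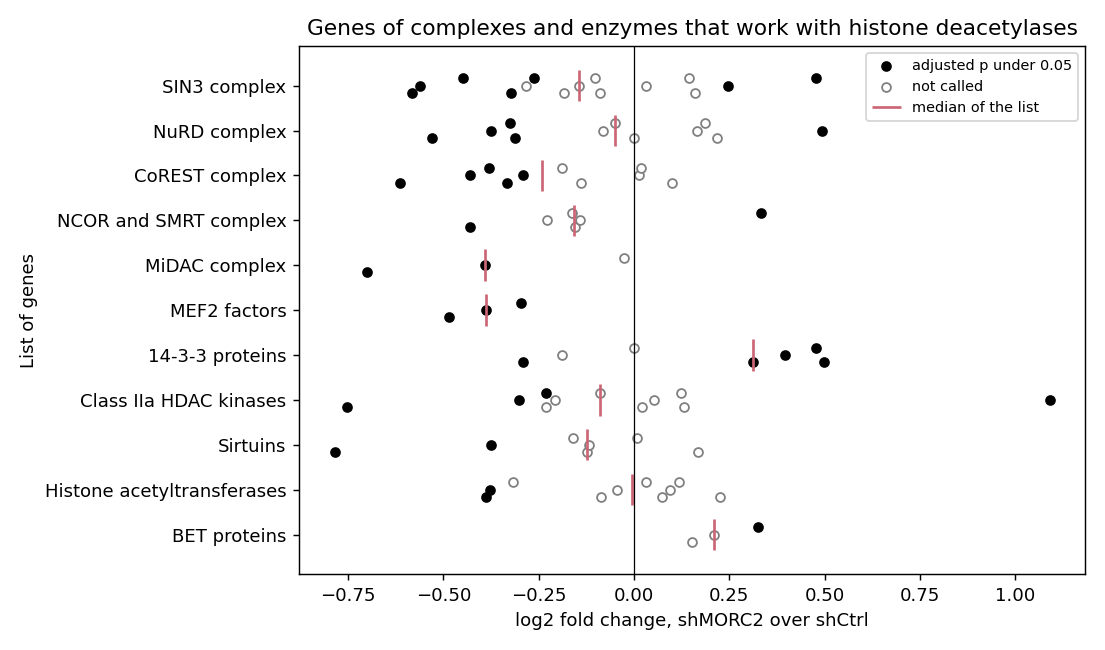
Fitted log2 fold change of the 86 tested genes of the 11 lists, one row per list, filled points called at an edgeR adjusted p under 0.05 and red lines the list medians. All points of the MEF2 row lie left of 0, and most filled points of the 14-3-3 row lie right of it.

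The corepressor complexes of class I held more genes called lower than higher in 4 of 5 lists. Over all genes tested the shares were near equal, at 19.6% lower and 19.9% higher, and the lists are short. In the SIN3 complex 2 of 15 genes were called higher and 5 lower. SAP18 rose from 64.2 ± 4.75 to 89.4 ± 2.59 CPM (SD, n = 3 each, log2 fold change 0.48, SE 0.078, edgeR adjusted p 0.000370), and BRMS1L had the lowest value of its list (log2 fold change -0.58, SE 0.13, edgeR adjusted p 0.00412). In the NuRD remodelling complex 1 of 11 was called higher and 4 lower. RBBP4, a histone chaperone, rose from 101 ± 8.97 to 142 ± 12.0 CPM (log2 fold change 0.49, SE 0.088, edgeR adjusted p 0.000713), while MTA1, the subunit that binds HDAC1 and HDAC2, fell from 157 ± 11.7 to 109 ± 3.89 CPM (log2 fold change -0.53, SE 0.078, edgeR adjusted p 0.000172). With the replicate number as a block the NuRD count was 4 higher and 4 lower.

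In the CoREST complex 0 of 10 genes were called higher and 5 lower, with a median log2 fold change of -0.24. RCOR3, a scaffold of the complex, had the lowest value (log2 fold change -0.61, SE 0.15, edgeR adjusted p 0.00596). In MiDAC, a mitotic complex of HDAC1 and HDAC2, 2 of 3 genes were called lower, and its scaffold gene ELMSAN1 (also named MIDEAS) fell from 62.5 ± 5.997 to 38.5 ± 0.511 CPM (SD, n = 3 each, log2 fold change -0.70, SE 0.084, edgeR adjusted p 3.43e-05). In the NCOR and SMRT complex, which carries HDAC3, GPS2 was called higher (log2 fold change 0.33, SE 0.075, edgeR adjusted p 0.00327) and TBL1X lower (log2 fold change -0.43, SE 0.077, edgeR adjusted p 0.000721), and the other 4 genes were not called. In the blocked fit 1 was called higher and 3 lower.

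Among enzymes outside the zinc-dependent family, 0 of 7 sirtuins were called higher and 2 lower. SIRT7, a nucleolar deacetylase that depends on NAD, stood at 84.5, 95.7 and 95.2 CPM in shCtrl and at 47.0, 55.9 and 56.9 CPM in shMORC2 (log2 fold change -0.79, SE 0.090, edgeR adjusted p 2.48e-05). The other was SIRT1, whose call held in 7 of 14 alternatives. The acetyltransferases, which add the mark that deacetylases remove, had 0 of 10 called higher and 2 lower, KAT8 (log2 fold change -0.39, SE 0.076, edgeR adjusted p 0.00128) and KAT2A, and a median of -0.0064. With the replicate number as a block 1 acetyltransferase, HAT1, was called higher. Of the BET readers of acetylated histones, BRD3 was called higher (log2 fold change 0.33, SE 0.072, edgeR adjusted p 0.00309) among 3 tested, and all 3 were in the blocked fit. BRDT did not pass the filter.

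The genes whose log2 CPM followed a member most closely over the 6 libraries were sought among 14334 genes whose mean count reached 100. For HDAC9, the member with the largest called change, these were XPOT, UBE2J1 and KMT2D (Pearson's r 0.999, 0.998 and 0.998). XPOT, a tRNA export factor, stood at 92.1, 89.4 and 90.4 CPM in shCtrl and at 57.6, 47.8 and 49.4 CPM in shMORC2, so that like HDAC9 it was level in shCtrl, lower in shMORC2 and, among the shMORC2 libraries, highest in replicate 1. For HDAC1, the most abundant member, they were NAA38, IPP and PSMB2 (Pearson's r 0.998, 0.997 and 0.997). All 6 libraries are shared by these pairs, and with 3 libraries on each side of a broad difference such values describe likeness only.

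The authors' table of splicing events held 1449 events in 1181 genes, or 5.62% of the genes tested for expression, and 4 members were listed with 8 events. HDAC11 had 4 of them, HDAC9 2, and HDAC5 and HDAC7 1 each. All 4 of HDAC11 include the same exon, exon 6, so they are overlapping records and not 4 separate places. The table names its groups only as 1 and 2, so no direction of a knockdown was read from it, and reads were summed over the 6 libraries. It lists only events that passed a threshold of the authors, so a listed event is a selected one. Coverage was thin, and only 2 of the 8 events had at least 10 reads in every library. The skipped exons and the alternative splice site listed for members are shown, all of them in coding sequence (GRCh38, on the strand of the gene). Events of mutually exclusive exons were also listed for HDAC5 and HDAC11. Of their exons only HDAC11 exon 6 is shown, since it was also listed as a skipped exon. The first line gives the end of the intron before HDAC9 exon 4 and the start of that exon, chr7:18590318-18590347, with the 9 bases between the alternative splice sites in capitals. The others are HDAC9 exon 7 of 26, chr7:18629350-18629481, HDAC7 exon 9 of 26, chr12:47795906-47796016, and HDAC11 exon 6 of 10, chr3:13500713-13500789, with exons numbered in the canonical transcript of GENCODE v44.
HDAC9 exon 4 start: tctttctcttctcgcaagTTGCAACAGgaa
HDAC9 exon 7: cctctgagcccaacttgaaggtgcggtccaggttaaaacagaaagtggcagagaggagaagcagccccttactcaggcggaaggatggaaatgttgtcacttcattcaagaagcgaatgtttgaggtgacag
HDAC7 exon 9: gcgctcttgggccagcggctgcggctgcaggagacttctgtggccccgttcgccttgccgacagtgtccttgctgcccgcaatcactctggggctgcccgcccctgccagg
HDAC11 exon 6: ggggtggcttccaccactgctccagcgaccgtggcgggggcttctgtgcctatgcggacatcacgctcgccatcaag

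The 9 extra bases of HDAC9 exon 4 keep the reading frame. The table counts reads on the alternative segment together with reads across junctions, so the counts of the 2 forms cannot be set against each other without a correction for length, and none was made. The longer form had 173 such reads and the shorter 41 over the 6 libraries, at 30 to 43 reads per library. HDAC9 exon 7 has 132 bases, which are 44 whole codons, and had 28 reads for inclusion and 7 for skipping. It is known to encode part of a nuclear localisation signal. HDAC7 exon 9 has 111 bases, or 37 codons, and had 29 reads for inclusion and 28 for skipping, with 4 to 16 reads per library. HDAC11 exon 6 has 77 bases, which are not whole codons, and had 46 reads for inclusion and 34 for skipping. No share of a form and no test between groups is given.

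**Figure D5:**
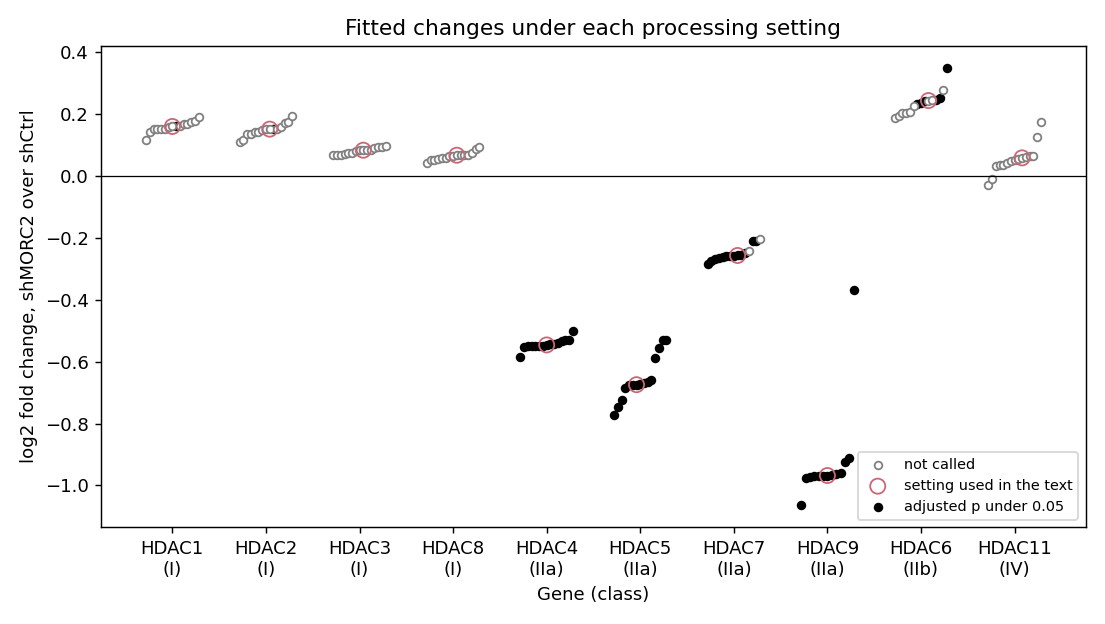
Fitted log2 fold change of each member under every processing setting (1 point per setting, filled where called), with the setting used in the text ringed. HDAC4, HDAC5 and HDAC9 are filled throughout, HDAC7 in 12 of 14 alternatives, HDAC6 in 6 of 14, and the points of HDAC11 cross 0. The HDAC9 point at -0.37 is limma on log2(RPKM + 1), a scale that understates low genes.

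Across the settings plotted, the calls of HDAC4 and HDAC5 held in 14 of 14 alternatives, with log2 fold changes from -0.59 to -0.50 and from -0.77 to -0.53. HDAC9 was called in all 12 alternatives that could test it, from -1.06 to -0.37. HDAC3, HDAC8 and HDAC11 were called in none of their 14.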

How the data were processed

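Poly(A) RNA from 3 shCtrl and 3 shMORC2 SW480 libraries was prepared with a stranded kit that adds molecular identifiers. The submitters' processing notes name Trimmomatic 0.36, STAR 2.5.3a, featureCounts of Subread 1.5.1 and edgeR 3.12.1, with GRCh38. The deposited files hold raw gene-level read counts, RPKM values that the authors computed from them (scaled by exon length and library total, which recomputation matched) and rMATS read counts per splicing event, on junctions and target segments together. The p-values, inclusion levels and their differences in that table are the authors' own comparison and were not used. Whether identifiers were collapsed was not given in the sources used here. Columns of samples from outside the series numbered 0.

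Differential expression was computed in R 4.3.3 by the quasi-likelihood test of edgeR 4.0.16 on group, after filterByExpr and TMM, with Benjamini-Hochberg adjustment over 21005 genes. The SE was the size of the log2 fold change divided by the square root of F. On simulated data of 20658 genes, this test recovered 50% of 100 genes changed by 0.5 on the log2 scale and 90% of 100 changed by 1. It made 10 false calls there. No other gene was changed, a far smaller share than was called in these data, so the figures do not give the recovery here. Alternatives used DESeq2 1.42.0, limma 3.58.1 on log2(RPKM + 1) and log2(RPKM + 0.1), other filters and scaling, a replicate block, and each library left out in turn. The permutation test used scipy 1.17.1. Deviations of libraries with the same replicate number from their group means correlated at 0.333, 0.165 and 0.149. Those of libraries with unlike numbers correlated at -0.255 to 0.121, so the margin was small for replicates 2 and 3. The numbers were taken to pair the libraries in the blocked fit and the differences within pairs, on the values alone. The main fit and the permutation test made no use of them. Correlations of log2 CPM were 0.994 to 0.996 within groups and 0.978 to 0.984 between them.

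The members and gene lists were chosen with earlier results of these data known. The rule named all 10 members, MORC2, HDAC10 and HDAC-named antisense transcripts, the highest and lowest called gene of each list, the 3 genes most like HDAC1 and HDAC9, and members in the splicing table. Sequences came from RefSeq windows (GRCh38.p14) and the GRCh38 genome.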

Additional observations from a re-analysis of the deposited data

How the results depend on the processing

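Called members numbered 4 in the text, 7 with the replicate block and 3 to 4 when each library was left out in turn. The block added HDAC1 (0.16), HDAC2 (0.15) and HDAC6 (0.24) on the log2 scale and changed no other call of a member. Among the named genes of the partner lists, the block changed only the call of HAT1, which became called higher. HDAC6 was also called with a CPM of at least 1 in 3 libraries (0.25), with DESeq2 (0.25), with library size without TMM (0.23) and with no low-count filter (0.24). The cause was not tested. Leaving out each library in turn gave 0.19 to 0.35 for HDAC6, -0.28 to -0.20 for HDAC7, which lost its call without shCtrl replicate 3 or shMORC2 replicate 1, and -0.030 to 0.17 for HDAC11, whose sign turned without shCtrl replicate 1 (-0.011) or shMORC2 replicate 3. The HDAC1 to HDAC2 log2 ratio differed by -0.028 to 0.050 in these fits, with its sign turned without shCtrl replicate 1 or shMORC2 replicate 3. The log2 ratio of the summed level per kilobase (-0.0048) ran from -0.020 to 0.0084 and was 0.017 with canonical transcript lengths, a setting chosen after seeing the data, so neither sign of it can be read.

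Over all genes 8301 were called, 5454 with limma on log2(RPKM + 1) without an RPKM filter, 7566 with DESeq2 (14909 genes had no adjusted p), 10287 with the replicate block, of which 8291 were shared with the 8301, and 6268 to 8433 with a library left out. Calls of listed partner genes ran from 30 to 41 with a library left out. HDAC9 had no value in the limma fits that required a mean RPKM of 1. Among named genes outside the members, calls held in 13 of 14 alternatives for BRMS1L, RCOR3, SIK2 and YWHAQ, in 12 for YWHAH and KAT2A, in 10 for MEF2D, in 7 for MEF2A and SIRT1 and in 5 for CAMK2D. Depth also limited the splicing events, of which only 2 of 8 had at least 10 reads in every library.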
